A study of Homo sapiens with 12 samples.

Results

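The genes described here are 41 genes of ribosome biogenesis and the nucleolus, chosen by symbol: proteins of small nucleolar ribonucleoproteins (snoRNPs), multifunctional nucleolar proteins, subunits of RNA polymerase I and factors that mature the small and the large ribosomal subunit. All 41 were found among the 27864 genes of the count table, and all 41 were among the 16081 genes with enough counts to be tested. Ribosomes are built mainly in the nucleolus, where RNA polymerase I transcribes a long precursor of the ribosomal RNAs. The snoRNPs guide chemical modification of that precursor, and a succession of assembly factors folds and cuts it into the small and the large subunit. The pathway is known for its response to growth signals through PI3K, mTOR, RAS and the transcription factor MYC, in breast cancer cells as in other cells.

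Messenger RNA was sequenced from T47D, an established estrogen receptor-positive breast cancer cell line, to ask how loss of NF1 and treatment with BYL719 alter expression. NF1 encodes neurofibromin, which switches RAS off, and BYL719 (alpelisib) inhibits the alpha isoform of PI3K. The groups were NF1 knockout cells (NF1KO) given 3 µM BYL719 for 48 h (3 libraries), NF1KO cells given the vehicle DMSO for 48 h (2 libraries, numbered 2 and 3), control cells (CTRL) given 3 µM BYL719 for 48 h (3 libraries) and CTRL cells given DMSO for 48 h (3 libraries). The NF1KO DMSO library numbered 1 was not analysed here. The labels do not say whether the knockout is a clone or a pool, nor what the control line carries, so a difference between NF1KO and CTRL is a difference between these lines as labelled. They also do not say that replicates came from separate cultures, so p-values measure the spread between these libraries.

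The 11 libraries held 53283945 to 60148876 counts, of which the 41 genes took between 0.440% and 0.594%. Levels are normalised read counts, scaled by library size (CPM). NF1 itself was at 0.891, 0.547 and 0.400 CPM in NF1KO BYL719 libraries and 0.480 and 0.471 CPM in NF1KO DMSO libraries, against 214, 147 and 152 CPM in CTRL BYL719 libraries and 289, 209 and 250 CPM in CTRL DMSO libraries. All 9 luminal breast markers examined were present in every library (EPCAM, the lowest, at 123 to 146 CPM). The basal keratin KRT5 did not pass 0.0507 CPM, and the leukocyte gene PTPRC did not pass 0.0345 CPM. Of the other basal and non-epithelial markers examined, COL1A1 was at 16.6 to 55.2 CPM, VIM at 1.91 to 3.40 CPM and CD68 at 0.670 to 2.59 CPM. The highest values were 1.06 CPM for TP63, 0.709 for PECAM1, 0.279 for KRT14 and 0.0547 for COL1A2. In bulk RNA, fewer cells that express a gene and less of its RNA per cell cannot be told apart.

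Short stretches of the DNA just before the start site are printed for 5 genes, because the E-box CACGTG is the textbook binding sequence of MYC and NRF1 binds a longer GC-rich palindrome, and in these genes the motif lies close to the start. The sequences are from RefSeq (GRCh38.p14), read 5′ to 3′ on the gene's strand, each ending at the base before the start, with the motif in capitals: UTP4 (chr16:69132569-69132648, plus strand), NAT10 (chr11:34105549-34105628, plus), UTP20 (chr12:101280025-101280104, plus), DDX10 (chr11:108664989-108665068, plus) and MYBBP1A (chr17:4555385-4555464, minus).
UTP4: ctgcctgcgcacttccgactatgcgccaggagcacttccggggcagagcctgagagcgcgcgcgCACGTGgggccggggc
NAT10: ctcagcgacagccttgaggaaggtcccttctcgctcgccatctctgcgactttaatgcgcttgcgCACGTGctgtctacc
UTP20: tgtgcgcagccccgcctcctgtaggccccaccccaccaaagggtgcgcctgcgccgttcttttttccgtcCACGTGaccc
DDX10: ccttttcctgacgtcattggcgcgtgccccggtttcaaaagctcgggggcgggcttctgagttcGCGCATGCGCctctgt
MYBBP1A: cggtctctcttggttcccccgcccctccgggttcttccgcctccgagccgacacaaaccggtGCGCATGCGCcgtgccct
The first base of CACGTG lay 16 bases before the start of UTP4, 15 before that of NAT10 and 10 before that of UTP20, and the NRF1 palindrome began 16 bases before DDX10 and 18 before MYBBP1A. Of the 41 genes, 36 had an entry in the RefSeq promoter table. Within 250 bases before the start, on both strands, CACGTG was found in 4 of the 36 (11.1%; UTP14A is the fourth), against 7.84% of 15843 protein-coding genes. The NRF1 palindrome, exactly as capitalised in DDX10, was found in 3 of the 36 (8.33%; DKC1 is the third), against 1.48% of protein-coding genes. CATGTG (or CACATG on the other strand) and the ZNF143 motif were found in 0 of the 36, against 7.18% of protein-coding genes for CATGTG and 0.36% for the ZNF143 motif. These counts describe letters in a window and were not tested. The median GC content of the 36 windows was 61.4%, against 62.4% over all protein-coding genes.

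The 41 genes spanned a wide range of levels. The exon length of a gene joined the exons of all its annotated transcripts. It can exceed the length of any single transcript, so the order below depends on this choice and is not one of transcript copies. Per kilobase of exon, in CTRL DMSO libraries, the most abundant was NPM1 (nucleophosmin, a chaperone of nucleolar assembly) at 171 ± 13.5 CPM per kb (SD, n = 3). It was followed by NOLC1 (a snoRNP chaperone) at 115 ± 24.8 and DDX21 (an RNA helicase) at 104 ± 16.5 CPM per kb. NCL (nucleolin, which binds the rRNA precursor) was next at 92.8 ± 20.5 CPM per kb. Without division by length, NCL had a mean of 643 CPM in these libraries. That lay between NPM1 at 655 CPM and DDX21 at 520 CPM, with NOLC1 at 456 CPM. The SDs are spreads between libraries that these genes share, so they do not test the order of the genes. The lowest were UTP15 at 4.62 ± 0.288 and DDX10 (a helicase of the small subunit pathway) at 4.08 ± 0.353 CPM per kb. NCL, NPM1, DDX21 and NOLC1 together made 42.2% to 46.3% of the summed CPM of the 41 genes.

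Both CTRL libraries numbered 1 stood apart. In CTRL DMSO replicate 1, 36 of the 41 genes were higher than the mean of replicates 2 and 3, with a median log2 difference of 0.21, against -0.00 over all genes tested. In CTRL BYL719 replicate 1, 28 of 41 were higher, with a median log2 difference of 0.11, against -0.02 over all genes. The deviations ranged, in CTRL DMSO, up to 0.63 for NOP14 (a small subunit factor) and down to -0.30 for NHP2 (a core protein of the pseudouridylation snoRNPs). The median coefficient of variation of the 41 genes was 4.02% in NF1KO BYL719 libraries and 2.14% in NF1KO DMSO libraries, of which there were only 2. It was 6.55% in CTRL BYL719 and 9.35% in CTRL DMSO libraries, and it was not computed over all genes. Since both CTRL libraries numbered 1 stood apart, counts of called genes are also given without them. The libraries stood apart in these same genes, most of which were higher there. Leaving them out therefore lowers the CTRL means of those genes, and such counts are no independent check.

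The summed level of the 41 genes was 5085, 4968 and 4923 CPM in NF1KO BYL719 libraries and 5185 and 5302 CPM in NF1KO DMSO libraries. It was 5177, 4681 and 4566 CPM in CTRL BYL719 libraries and 5801, 4874 and 4557 CPM in CTRL DMSO libraries. The NF1KO BYL719 libraries all lay below both NF1KO DMSO libraries, whereas the CTRL BYL719 and CTRL DMSO ranges overlapped.

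**Figure D1:**
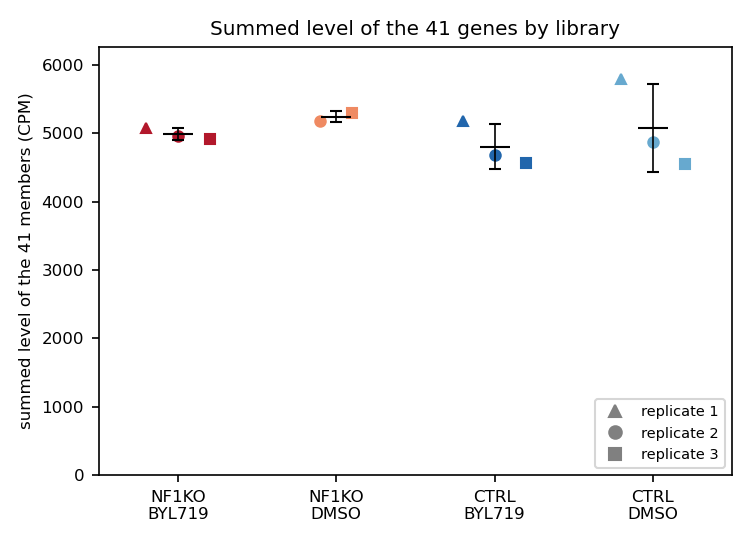
Summed level of the 41 genes (vertical axis, CPM) in each library of the 4 groups (horizontal axis); marker shapes give the replicate number, and the horizontal dash and bar give the mean and SD. CTRL DMSO replicate 1, at 5801 CPM, is the highest library, and the CTRL ranges overlap each other.

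**Figure D2:**
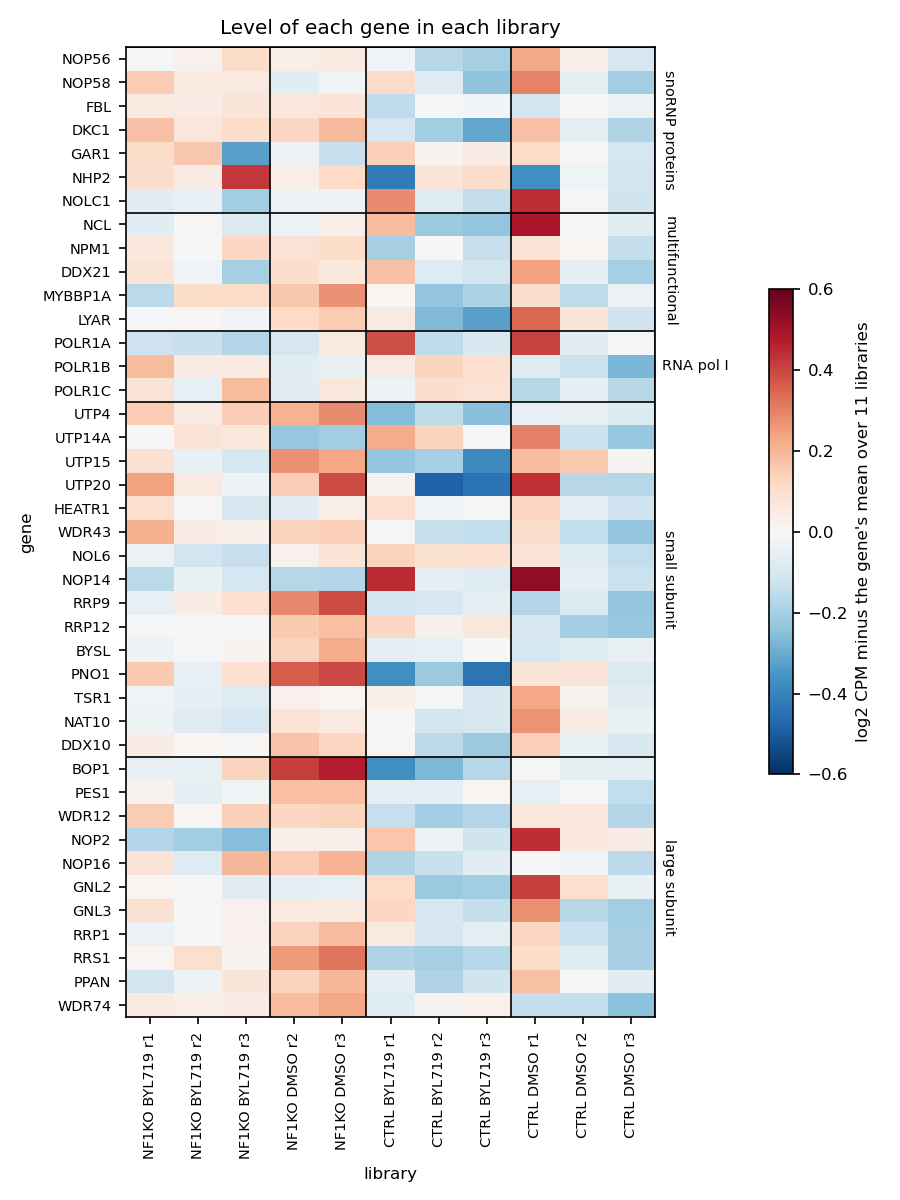
Level of each gene (vertical axis, grouped by role) in each library (horizontal axis), as log2 CPM minus the gene's mean over the 11 libraries; red is above that mean and blue below it. Both CTRL libraries numbered 1 are red for many genes, and NHP2 is blue there.

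The fitted differences were small in size. No gene of the 41 passed a 1.5-fold change in any of the 5 comparisons, whereas between 12.6% and 23.3% of all genes tested did. The largest fold was 1.42, for RRP9 in NF1KO over CTRL under DMSO, and the smallest was 0.742, for the difference of the BYL719 effect on RRP12. The 95% confidence interval of the fold change, from its SE and 7 residual degrees of freedom, lay inside 1.5-fold in both directions for 39 of 41 genes for BYL719 in NF1KO (not UTP20, a scaffold of early small subunit precursors, and BOP1) and for 40 of 41 for BYL719 in CTRL (not UTP20). It did so for 34 of 41 for the difference of the BYL719 effect (not NOP58, NCL, UTP20, NOP14, RRP9, RRP12 and GNL2). For NF1KO over CTRL it did so for 36 of 41 under DMSO (not NHP2, UTP20, NOP14, RRP9 and BOP1) and for 37 of 41 under BYL719 (not NHP2, UTP20, NOP14 and PNO1), so that larger changes of these genes lie within their intervals. The test itself also pools spread over genes, so these intervals are wider than its p-values imply.

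The first question was what BYL719 does to these genes in each line. In NF1KO cells, 4 genes fell and 0 rose, beside 8.47% of all genes tested called lower and 10.3% called higher (edgeR's quasi-likelihood test, adjusted p under 0.05). The share called lower among the 41, 9.76%, was thus near that of all genes. DESeq2 and limma-voom also called 0 higher, as did edgeR at an unadjusted p under 0.05, but no share of all genes is set beside these counts. The genes that fell were BOP1 (a large subunit factor that works in a complex with PES1 and WDR12), RRP9 (a protein of the U3 snoRNP, which acts in small subunit processing), PNO1 (which binds the maturing end of the small subunit RNA) and UTP15 (a subunit of the UTP-A complex, the first to join the rRNA precursor). The median log2 fold change of the 41 genes was -0.13, against 0.01 over all genes. In 21 of 41 genes all NF1KO BYL719 libraries lay below both NF1KO DMSO libraries and in 4 they lay above, where 26.2% and 28.4% of all genes did so.

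BOP1 was at 44.5, 44.7 and 50.5 CPM in NF1KO BYL719 libraries, against 61.4 and 63.7 CPM in NF1KO DMSO libraries. The groups did not overlap, and the log2 fold change was -0.43 ± 0.08 (SE; adjusted p = 0.00372, edgeR). RRP9 was at 17.5, 18.6 and 19.4 CPM in NF1KO BYL719 libraries, against 22.1 and 23.7 CPM in NF1KO DMSO libraries. Again every BYL719 library was the lower one, and RRP9 fell by 0.31 ± 0.08 on the log2 scale (adjusted p = 0.0186, edgeR). PNO1 was at 39.4, 34.2 and 37.8 CPM in NF1KO BYL719 libraries, against 45.5 and 46.6 CPM in NF1KO DMSO libraries, a log2 fold change of -0.31 ± 0.09 (adjusted p = 0.0286, edgeR). UTP15 was at 28.6, 26.1 and 25.1 CPM in NF1KO BYL719 libraries, against 32.5 and 31.5 CPM in NF1KO DMSO libraries, with a log2 fold change of -0.27 ± 0.09 (adjusted p = 0.0495, edgeR). Neither gene overlapped between the groups. RRP9, though a U3 snoRNP protein, was counted with the small subunit genes. None of the 7 genes grouped as snoRNP (log2 fold changes -0.07 to 0.14) was called. Nor was any of the 5 multifunctional genes (-0.19 to -0.03) or the 3 RNA polymerase I genes (-0.13 to 0.15). Of the other 12 small subunit genes and 10 large subunit genes none was called either.

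With 2 NF1KO DMSO libraries these calls rested on single libraries. The count of genes called lower was 0 without NF1KO DMSO replicate 3, 1 without NF1KO DMSO replicate 2, 1 without NF1KO BYL719 replicate 2 and 7 without CTRL BYL719 replicate 1, and 1 gene was called higher without CTRL DMSO replicate 1. BOP1 was lost only without NF1KO DMSO replicate 3 (adjusted p = 0.0547), among the alternatives run. RRP9 was lost without any of NF1KO DMSO replicates 2 and 3 and NF1KO BYL719 replicates 1 and 2 (0.0524 to 0.188), and PNO1 without any of NF1KO DMSO replicates 2 and 3 and NF1KO BYL719 replicate 2 (0.103 to 0.183). UTP15 was lost without any of NF1KO DMSO replicates 2 and 3, NF1KO BYL719 replicates 2 and 3, CTRL DMSO replicate 2 and CTRL BYL719 replicate 2 (0.0589 to 0.234), and also under upper-quartile scaling, with no filter and with a filter on CPM (1 or more in 3 or more libraries). Without both CTRL libraries numbered 1, which enter this comparison only through the shared spread, the filter and the scaling, 10 genes were called lower and 1 higher, beside 16.0% and 17.3% of all genes.

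In CTRL cells 4 genes fell and 3 rose, beside 21.8% of all genes tested called lower and 22.6% called higher. Among the 41 the shares were 9.76% lower and 7.32% higher, both below those of all genes. The genes that fell were UTP15, PNO1 and BOP1, which also fell in NF1KO cells, and UTP4 (another subunit of the UTP-A complex). Those that rose were RRP12 (an export and maturation factor of the small subunit), POLR1B (a catalytic core subunit of RNA polymerase I) and WDR74 (which takes part in releasing factors from large subunit precursors). The median log2 fold change was -0.09, against 0.00 over all genes. Only 4 of 41 genes lay below and 5 above without overlap of the groups, where 25.3% and 25.8% of all genes did.

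UTP15 was at 22.8, 23.4 and 20.6 CPM in CTRL BYL719 libraries, against 30.5, 30.0 and 27.1 CPM in CTRL DMSO libraries. The groups were well separated, with a log2 fold change of -0.39 ± 0.08 (adjusted p = 0.00148, edgeR). PNO1 was at 27.4, 30.3 and 26.1 CPM in CTRL BYL719 libraries, against 37.2, 37.2 and 33.3 CPM in CTRL DMSO libraries, and fell by 0.36 ± 0.08 on the log2 scale (adjusted p = 0.00289, edgeR). BOP1 was at 35.6, 38.1 and 40.9 CPM in CTRL BYL719 libraries, against 45.9, 44.3 and 44.3 CPM in CTRL DMSO libraries, a log2 fold change of -0.23 ± 0.07 (adjusted p = 0.0207, edgeR). Neither gene overlapped between the groups, and both were lower in each BYL719 library. UTP4 was at 64.8, 69.9 and 65.4 CPM in CTRL BYL719 libraries, against 75.2, 75.1 and 73.4 CPM in CTRL DMSO libraries, with a log2 fold change of -0.16 ± 0.06 (adjusted p = 0.0428, edgeR).

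Among the genes that rose, RRP12 was at 192, 180 and 185 CPM in CTRL BYL719 libraries, against 165, 153 and 150 CPM in CTRL DMSO libraries. It did not overlap between the groups, and its log2 fold change was 0.25 ± 0.06 (adjusted p = 0.00368, edgeR). POLR1B was at 102, 107 and 105 CPM in CTRL BYL719 libraries, against 92.9, 89.6 and 81.0 CPM in CTRL DMSO libraries, a log2 fold change of 0.25 ± 0.07 (adjusted p = 0.00931, edgeR). WDR74 was at 24.8, 26.3 and 26.5 CPM in CTRL BYL719 libraries, against 23.5, 23.5 and 21.9 CPM in CTRL DMSO libraries, with a log2 fold change of 0.17 ± 0.06 (adjusted p = 0.0423, edgeR). The rises are thus of 1.19-fold for RRP12 and POLR1B and 1.12-fold for WDR74. No snoRNP gene (log2 fold changes -0.19 to 0.10) and no multifunctional gene (-0.28 to -0.01) was called.

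CTRL libraries of the same number deviated together from their group means (over the 41 genes, r = 0.92, 0.80 and 0.81 for numbers 1, 2 and 3, across genes that are not independent replicates). Numbers 2 and 3 crossed between DMSO and BYL719 gave 0.74 and 0.53 over the same genes. Number 1 crossed with 2 or 3 gave -0.87 to -0.75. These values thus set number 1 apart from the others and only weakly tell numbers 2 and 3 apart as pairs. In a fit with a term for each replicate number of a line (a block), 17 genes were called lower and 5 higher in CTRL cells, beside 31.6% and 31.8% of all genes, and these held all 7 calls above. The 13 genes added to those lower were NOP56 and DKC1 among snoRNP genes, NCL, MYBBP1A and LYAR among multifunctional genes, UTP20, NAT10 and DDX10 of the small subunit and WDR12, NOP2, GNL2, RRS1 and PPAN of the large subunit; POLR1C and NOL6 were added to those higher. In all 3 pairs of the same number 20 of 41 genes were lower under BYL719 (48.8%) and 7 were higher (17.1%), against 38.7% and 38.7% of all genes. Nucleolin shows the pattern: 654, 493 and 488 CPM in CTRL BYL719 libraries 1, 2 and 3, against 807, 573 and 549 CPM in CTRL DMSO libraries 1, 2 and 3, which overlap as groups but are lower under BYL719 in each pair.

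Without both CTRL libraries numbered 1, 6 genes were called lower and 5 higher, beside 23.5% and 23.8% of all genes, and UTP4 and BOP1 were no longer called. Leaving out CTRL DMSO replicate 3 gave 10 lower and 1 higher and lost POLR1B (adjusted p = 0.0534), and leaving out CTRL BYL719 replicate 1 gave 8 lower. Both counts stand without a share of all genes. BOP1 lost its call without either CTRL BYL719 replicate 1 (0.0618) or replicate 2 (0.0541). UTP4 was lost without any of CTRL DMSO replicates 1, 2 and 3, CTRL BYL719 replicates 1 and 3 and NF1KO DMSO replicates 2 and 3 (adjusted p 0.0537 to 0.153), and also under upper-quartile scaling, with no filter and with the compared libraries alone. WDR74 was lost without any of CTRL DMSO replicates 1, 2 and 3, CTRL BYL719 replicates 2 and 3, NF1KO DMSO replicates 2 and 3 and NF1KO BYL719 replicate 2 (0.0572 to 0.162), and also with no filter and with the compared libraries alone.

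**Figure D3:**
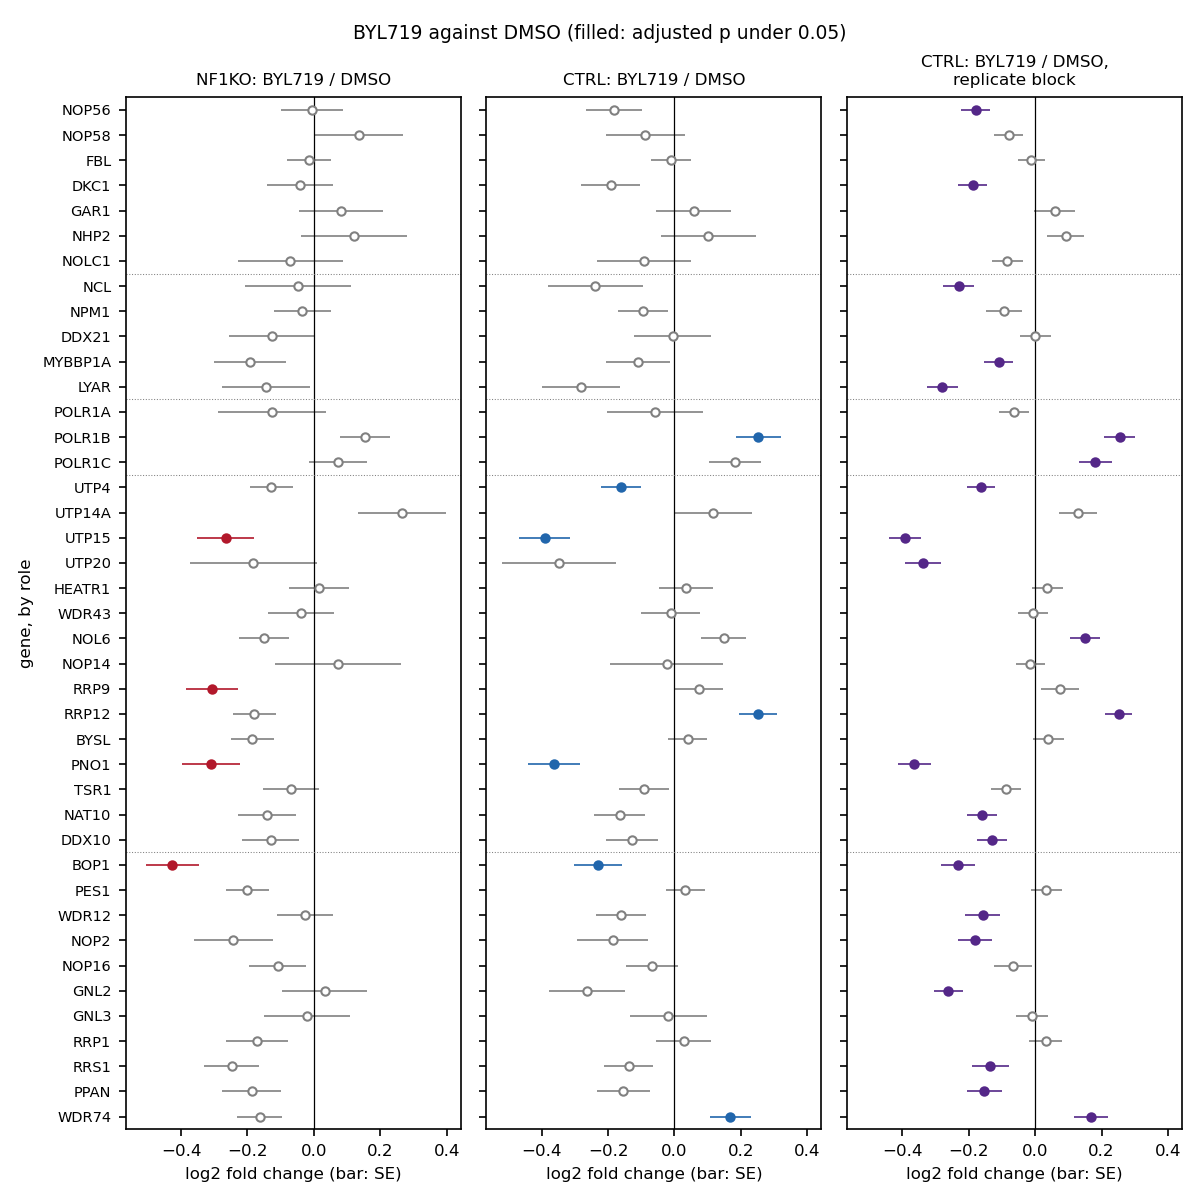
BYL719 against DMSO: log2 fold change (horizontal axis, bar: SE) of each of the 41 genes (vertical axis, by role) in NF1KO and in CTRL cells, with the CTRL fit that blocks on the replicate number; filled points are called at an adjusted p under 0.05. BOP1, PNO1 and UTP15 are filled to the left of 0 in both lines, and 17 genes are filled there in the blocked CTRL fit.

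The next question was whether the response to BYL719 differs between the lines, tested as the BYL719 effect in NF1KO minus that in CTRL. The difference was called for 3 genes, all lower in NF1KO, and for 0 in the other direction, beside 3.71% and 5.68% of all genes. These were RRP12, RRP9 and WDR74. At an unadjusted p under 0.05 (edgeR) 6 genes were lower and 0 higher, and DESeq2 and limma-voom also called 0 higher. No share of all genes is set beside these further counts. In CTRL cells RRP12 and WDR74 rose, and in NF1KO cells neither was called (log2 fold changes -0.18 ± 0.06 and -0.16 ± 0.07, SE). The median difference over the 41 genes was -0.00, against 0.01 over all genes.

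RRP12 was at 175, 175 and 175 CPM in NF1KO BYL719 libraries, against 197 and 200 CPM in NF1KO DMSO libraries, set beside the CTRL values above. The BYL719 libraries thus lay below the DMSO libraries in NF1KO cells and above them in CTRL cells, and the log2 difference of effects was -0.43 ± 0.09 (95% interval -0.63 to -0.23; adjusted p = 0.00745, edgeR). RRP9 in CTRL cells was at 16.7, 16.9 and 17.3 CPM under BYL719, against 16.0, 17.0 and 15.3 CPM under DMSO, which overlap. Its difference of effects was -0.38 ± 0.11 (-0.63 to -0.13; adjusted p = 0.0426, edgeR). WDR74 was at 26.9, 26.7 and 26.9 CPM in NF1KO BYL719 libraries, against 29.6 and 30.5 CPM in NF1KO DMSO libraries. Here too the NF1KO groups are apart in the direction opposite to CTRL, and the difference was -0.33 ± 0.09 (-0.55 to -0.11; adjusted p = 0.0418, edgeR).

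The RRP12 difference was lost only without NF1KO DMSO replicate 3 (adjusted p = 0.0612), among the alternatives run. The RRP9 difference was lost without any single library but CTRL BYL719 replicate 1 and NF1KO BYL719 replicate 3 (0.0530 to 0.229), and the WDR74 difference without any single library but CTRL BYL719 replicate 1 (0.0543 to 0.203), so that the count was 0 or 1 for 8 of the libraries left out; both were also lost with no filter. With the block within each line, the difference was called lower for 6 genes (adding NOL6, BYSL and PES1) and higher for 2 (NOP56 and GNL2), beside 12.1% and 14.9% of all genes. Without both CTRL libraries numbered 1 it was called lower for 4 genes (adding NOL6) and higher for 0, beside 6.39% and 8.74%.

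**Figure D4:**
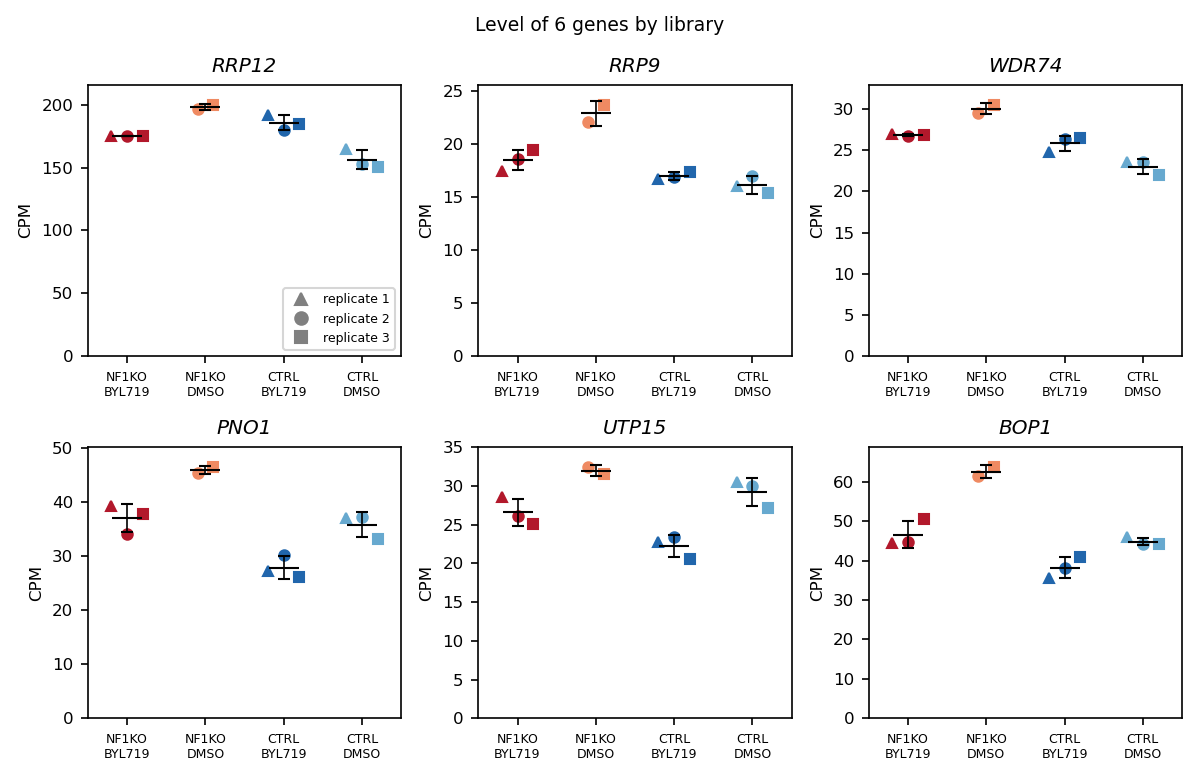
CPM (vertical axis) of 6 of the genes in each library of the 4 groups (horizontal axis); marker shapes give the replicate number, and the dash and bar give the mean and SD. RRP12 lies at 175 CPM in the NF1KO BYL719 libraries and between 180 and 192 CPM in the CTRL BYL719 libraries, while the NF1KO DMSO libraries lie above the CTRL DMSO libraries.

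The last question was how the lines differ, under each treatment. The comparisons of the lines share their DMSO and BYL719 libraries with the comparisons above, so that their values are not independent of those. Under DMSO, 9 genes were higher in NF1KO and 0 lower, beside 9.99% of all genes called higher and 10.3% called lower. Among the 41 the share called higher was 22.0%. At an unadjusted p under 0.05 (edgeR) 13 were higher and 0 lower, and DESeq2 and limma-voom also called 0 lower. These last counts stand without a share of all genes. The 9 genes were 5 small subunit genes (RRP9, RRP12, UTP4, PNO1 and BYSL, whose product bystin acts on late small subunit precursors) and 4 large subunit genes (BOP1, WDR74, RRS1 and PES1). RRS1 works in docking the 5S particle, and PES1 is the partner of BOP1. The median log2 fold change was 0.13, against -0.01 over all genes, and 19 of 41 genes lay above and 3 below without overlap, where 27.9% and 28.2% of all genes did.

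From the values above, the NF1KO DMSO libraries exceeded every CTRL DMSO library for RRP9 (log2 fold change 0.51 ± 0.08, adjusted p = 0.000662, edgeR), BOP1 (0.48 ± 0.08, adjusted p = 0.00101), WDR74 (0.39 ± 0.07, adjusted p = 0.00163) and RRP12 (0.35 ± 0.06, adjusted p = 0.00219). These 4 were called under each alternative run. UTP4 was at 89.7 and 94.6 CPM in NF1KO DMSO libraries, against 75.2, 75.1 and 73.4 CPM in CTRL DMSO libraries (0.31 ± 0.07, adjusted p = 0.00599, edgeR). PNO1, likewise without overlap, differed by 0.36 ± 0.09 (adjusted p = 0.0128, edgeR). RRS1 was at 62.0 and 65.0 CPM in NF1KO DMSO libraries, against 56.2, 49.6 and 45.5 CPM in CTRL DMSO libraries (0.33 ± 0.08, adjusted p = 0.0142, edgeR). BYSL was at 35.6 and 38.0 CPM in NF1KO DMSO libraries, against 30.2, 30.9 and 31.6 CPM in CTRL DMSO libraries (0.25 ± 0.06, adjusted p = 0.0155, edgeR). PES1 was at 108 and 108 CPM in NF1KO DMSO libraries, against 92.1, 94.9 and 85.8 CPM in CTRL DMSO libraries (0.25 ± 0.07, adjusted p = 0.0187, edgeR). In each of these 9 genes both NF1KO DMSO libraries were above all 3 CTRL DMSO libraries. The genes grouped as snoRNP, without RRP9 (-0.16 to 0.24), the multifunctional genes (-0.16 to 0.24) and the RNA polymerase I genes (-0.14 to 0.13) held no call.

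The count of genes higher under DMSO was 5 without NF1KO DMSO replicate 2 and 4 without NF1KO DMSO replicate 3. PNO1, RRS1, BYSL and PES1 were lost without either of these libraries (adjusted p 0.0506 to 0.179), UTP4 without NF1KO DMSO replicate 3 (0.0935) and PES1 also without CTRL DMSO replicate 3 (0.0668). Without both CTRL libraries numbered 1, 17 genes were higher and 0 lower, beside 12.4% and 13.6% of all genes.

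Under BYL719, 7 genes were higher in NF1KO and 1 lower, beside 20.8% of all genes called higher and 19.0% called lower. The share called higher among the 41, 17.1%, was near that of all genes. PNO1, UTP4, BOP1 and RRS1, which were higher under DMSO too, were joined by UTP15, WDR12 and DKC1 (dyskerin, the pseudouridine synthase of the snoRNPs), and NOL6 (a small subunit factor) was lower. The median log2 fold change was 0.08, against -0.00 over all genes, and 13 genes lay above and 3 below without overlap, where 25.2% and 23.7% of all genes did.

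The log2 fold change was 0.41 ± 0.08 for PNO1 (adjusted p = 0.00133, edgeR), 0.29 ± 0.07 for BOP1 (0.00719) and 0.26 ± 0.08 for UTP15 (0.0196), whose libraries are given above. UTP4 was at 86.4, 80.4 and 86.1 CPM in NF1KO BYL719 libraries, against 64.8, 69.9 and 65.4 CPM in CTRL BYL719 libraries (0.34 ± 0.06, adjusted p = 0.000622, edgeR). WDR12 was at 55.0, 49.7 and 54.5 CPM in NF1KO BYL719 libraries, against 44.9, 42.9 and 43.7 CPM in CTRL BYL719 libraries (0.28 ± 0.07, adjusted p = 0.0111, edgeR). In these 5 genes every NF1KO library was the higher one. DKC1 was at 115, 107 and 110 CPM in NF1KO BYL719 libraries, against 95.5, 88.6 and 82.4 CPM in CTRL BYL719 libraries (0.32 ± 0.09, adjusted p = 0.0124, edgeR). RRS1 was at 52.5, 55.5 and 52.6 CPM in NF1KO BYL719 libraries, against 45.9, 45.2 and 46.3 CPM in CTRL BYL719 libraries (0.22 ± 0.08, adjusted p = 0.0315, edgeR). Both were without overlap, as was NOL6, which ran the other way. NOL6 was at 89.8, 85.1 and 83.7 CPM in NF1KO BYL719 libraries, against 101, 98.0 and 98.3 CPM in CTRL BYL719 libraries (-0.20 ± 0.07, adjusted p = 0.0325, edgeR).

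PNO1, UTP4, BOP1 and WDR12 were called under each alternative run. With CTRL BYL719 replicate 3 left out 4 genes were called higher and DKC1 was not (adjusted p = 0.0598). UTP15 also missed the threshold without that library (0.0997), and without NF1KO BYL719 replicate 1 (0.0788), and RRS1 missed it without any of CTRL BYL719 replicates 2 and 3 and NF1KO BYL719 replicates 1 and 2 (0.0528 to 0.102). NOL6 was lost without any of CTRL BYL719 replicates 1, 2 and 3, NF1KO DMSO replicates 2 and 3 and NF1KO BYL719 replicates 2 and 3 (0.0528 to 0.0896), and also with no filter; NOL6 and UTP15 were both lost with the compared libraries alone. In all, 2 genes were called lower without CTRL DMSO replicate 1. Without both CTRL libraries numbered 1, 17 genes were higher and 1 lower, beside 24.3% and 22.5% of all genes.

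**Figure D5:**
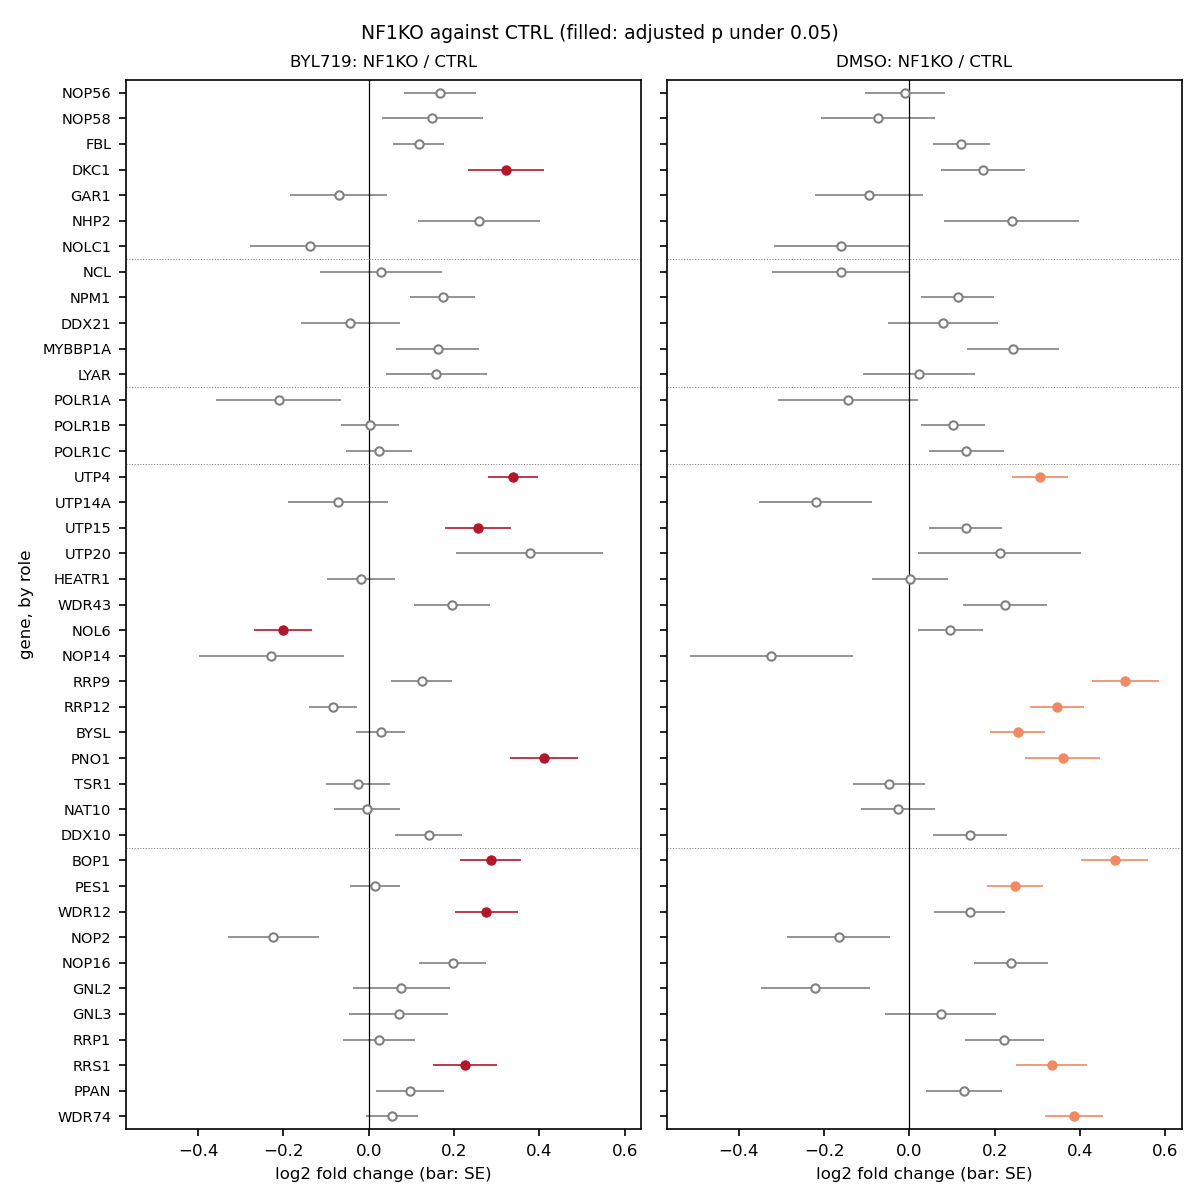
NF1KO against CTRL: log2 fold change (horizontal axis, bar: SE) of each of the 41 genes (vertical axis, by role) under BYL719 and under DMSO; filled points are called at an adjusted p under 0.05. Under DMSO all 9 filled points, 5 of the small and 4 of the large subunit, lie to the right of 0.

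MYC is given for its textbook role as an activator of these genes. It was at 40.7, 44.5 and 47.9 CPM in NF1KO BYL719 libraries and 29.6 and 30.0 CPM in NF1KO DMSO libraries, and at 37.6, 39.9 and 45.3 CPM in CTRL BYL719 libraries and 17.1, 18.7 and 19.8 CPM in CTRL DMSO libraries. It rose under BYL719 by a log2 fold change of 0.57 ± 0.10 in NF1KO (adjusted p = 0.00250, edgeR) and 1.14 ± 0.09 in CTRL (adjusted p = 1.18e-06), where the medians of the 41 genes were -0.13 and -0.09. In NF1KO over CTRL it was higher under DMSO (0.69 ± 0.10, adjusted p = 0.000360, edgeR) and not called under BYL719 (0.12 ± 0.09, adjusted p = 0.319). Any part of MYC in the levels of the 41 genes was not tested.

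A further 116 genes of the pathway, none of them among the 41, were counted from the same tests in 5 lists: 10 of other snoRNP proteins and their assembly, 12 of RNA polymerase I and its factors, 38 of the small subunit, 43 of the large subunit and 13 of the RNA exosome, which trims ribosomal RNA precursors. The shares called over all genes are those given above for each comparison and are repeated beside the counts. Counts with a single library left out and those from DESeq2 stand without such a share.

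For BYL719 in NF1KO, 16 of the 116 were lower and 3 higher (8.47% and 10.3% of all genes), with a median log2 fold change of -0.03. Lower were 1 snoRNP, 0 RNA polymerase I, 6 small subunit, 6 large subunit and 3 exosome genes, and higher were 1 each of RNA polymerase I, the small and the large subunit. The called genes with the smallest p in each list were RUVBL2, an ATPase of snoRNP assembly (-0.35 ± 0.10, adjusted p = 0.0306, edgeR), POLR1D, a subunit shared by RNA polymerases I and III (0.28 ± 0.08, 0.0374), the small subunit gene UTP25 (0.40 ± 0.08, 0.00652), the large subunit gene NOC2L (-0.27 ± 0.06, 0.0105) and the exosome subunit EXOSC7 (-0.33 ± 0.08, 0.0109). Without either NF1KO DMSO library 0 were lower and 0 higher. Without NF1KO BYL719 replicate 1, 5 were lower, and without replicate 2, 3 were lower and 1 higher. Leaving out both CTRL libraries numbered 1 gave 28 lower and 6 higher (16.0% and 17.3% of all genes).

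For BYL719 in CTRL, 29 were lower and 8 higher (21.8% and 22.6% of all genes), with a median of -0.04. Lower were 2 snoRNP, 1 RNA polymerase I, 9 small subunit, 9 large subunit and 8 exosome genes, and higher were 1, 2 and 5 genes of RNA polymerase I, the small and the large subunit. The called genes with the smallest p were RUVBL2 (-0.31 ± 0.09, adjusted p = 0.0159, edgeR), POLR1D (0.34 ± 0.08, 0.00286), UTP25 (0.55 ± 0.07, 8.29e-05), the large subunit gene NOP53 (0.87 ± 0.15, 0.000669) and the exosome subunit EXOSC9 (-0.74 ± 0.07, 8.03e-06). In the fit with the block 43 were lower and 26 higher (31.6% and 31.8% of all genes), and without both CTRL libraries numbered 1, 27 were lower and 15 higher (23.5% and 23.8%). The count lower was 19 without CTRL DMSO replicate 2 or without CTRL BYL719 replicate 3. The count higher was 16 without CTRL DMSO replicate 1 and 4 without CTRL DMSO replicate 3 or CTRL BYL719 replicate 2.

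The difference of the BYL719 effect was called lower for 0 and higher for 1 by edgeR (3.71% and 5.68% of all genes), EXOSC9 (0.56 ± 0.11, adjusted p = 0.00682). In the fit with the block it was lower for 9 and higher for 8 (12.1% and 14.9% of all genes). Without both CTRL libraries numbered 1 it was lower for 1 and higher for 4 (6.39% and 8.74%). Leaving out CTRL BYL719 replicate 1 gave 2 lower and 4 higher, leaving out CTRL DMSO replicate 3 or NF1KO BYL719 replicate 2 gave 2 higher, and DESeq2 called 4 higher.

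In NF1KO over CTRL under DMSO, 17 were higher and 1 lower (9.99% and 10.3% of all genes), with a median of 0.08. Higher were 2 snoRNP, 0 RNA polymerase I, 5 small subunit, 9 large subunit and 1 exosome gene, and the 1 lower was a large subunit gene. The called genes with the smallest p were SNU13, a core snoRNP protein (0.36 ± 0.10, adjusted p = 0.0185, edgeR), the small subunit gene RCL1 (0.57 ± 0.10, 0.00151), the large subunit gene NLE1 (0.31 ± 0.07, 0.00705) and EXOSC5 (0.50 ± 0.12, 0.0103). The count higher was 2 without either NF1KO DMSO library, 9 without CTRL DMSO replicate 2 or 3 and 26 without CTRL BYL719 replicate 1, and the count lower ranged from 0 to 3. With both CTRL libraries numbered 1 left out, 30 were higher and 2 lower (12.4% and 13.6% of all genes).

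Under BYL719, 24 were higher and 4 lower in NF1KO (20.8% and 19.0% of all genes), with a median of 0.08. Higher were 2 snoRNP, 1 RNA polymerase I, 7 small subunit, 9 large subunit and 5 exosome genes, and lower were 3 small subunit and 1 large subunit gene. The called genes with the smallest p were NAF1, a snoRNP assembly factor (0.37 ± 0.09, adjusted p = 0.00471, edgeR), TAF1A, a subunit of an RNA polymerase I initiation factor (0.60 ± 0.15, 0.00830), the small subunit gene IMP4 (0.32 ± 0.06, 0.000633), the large subunit gene BRIX1 (0.43 ± 0.07, 0.000409) and EXOSC9 (0.58 ± 0.07, 5.06e-05). The counts were 28 higher and 7 lower without both CTRL libraries numbered 1 (24.3% and 22.5% of all genes).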

How the data were processed

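The authors deposited raw counts per Entrez gene; per the submitters' processing notes they used STAR 2.5.2a, SAMtools 1.7, Picard 2.9.2 and edgeR with hg38. The counting tool, its strand setting and the annotation are not given in the sources used here. The library kit was stranded, single-read and selected polyadenylated RNA, per the labels. Ribosomal RNA genes took 8.45% to 12.3% of counts. Of 27864 identifiers, 27740 (99.6%) matched RefSeq on GRCh38, and 0 value columns were without a sample.

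Tests were run with edgeR 4.0.16 in R 4.3.3 (filterByExpr, TMM, glmQLFit and glmQLFTest on 4 groups, 7 residual degrees of freedom, 2-sided, Benjamini-Hochberg adjustment over the 16081 genes tested). CPM use TMM-scaled library sizes. The SE is the log2 fold change over the root of F. The steps were tested on simulated data.

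The 41 genes, the role groups and the other pathway lists were chosen with earlier results of these data known. Named per comparison were, in each role group, the 2 called genes with the smallest p, every gene called in the difference of effects and every gene called against the majority; for the other pathway lists, the called gene with the smallest p. The remaining called genes, NCL and the genes added by other fits were named after their values were seen.

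Alternatives were RLE and upper-quartile scaling, leaving out ribosomal RNA genes, other filters, DESeq2 1.42.0, limma-voom 3.58.1, replicate blocks, the compared libraries only, and leaving out libraries. The CTRL libraries with the block alone were added after seeing the data. The labels do not say what a replicate number stands for. Deviations of same-number CTRL libraries from their group means correlated over all genes at 0.59, 0.34 and 0.32. Numbers 2 and 3 crossed between DMSO and BYL719 gave 0.23 and 0.18. CTRL numbers were taken as pairs, a pairing that is read from the data and not settled by these values. The 2 NF1KO pairs (0.08 and 0.15) do not show pairing.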

Additional observations from a re-analysis of the deposited data

Results flagged for a closer look

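The BYL719 effect differed between the lines for 3 of the 41 genes, by a test of the difference itself (NF1KO minus CTRL, log2 scale, edgeR's quasi-likelihood test), beside 3.71% of all genes called lower and 5.68% called higher. The difference was -0.43 for RRP12, whose BYL719 effect was -0.18 in NF1KO and 0.25 in CTRL. It was -0.382 for RRP9, with effects of -0.31 in NF1KO and 0.07 in CTRL, and -0.331 for WDR74, with effects of -0.16 in NF1KO and 0.17 in CTRL. The RRP12 call was lost when 1 of the 11 single libraries was left out, the RRP9 call for 9 and the WDR74 call for 10. All groups held 2 or 3 libraries, too few to test a single library as an outlier.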

How the results depend on the processing

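Of 31 called results on single genes, 11 kept their call under all of the 21 to 23 alternatives run for each, and 0 reversed. No scaling moved the median of all genes by over 0.1. With the replicate block over all groups, the genes called were 13 lower for BYL719 in NF1KO (13.4% of all genes in that fit), 10 lower and 5 higher for BYL719 in CTRL (26.3% and 26.7%), 14 higher for NF1KO over CTRL under DMSO (12.7%), and 11 higher and 2 lower under BYL719 (25.8% and 23.5%). With the replicate block within each line they were 17 lower and 1 higher for BYL719 in NF1KO (20.1% and 21.8% of all genes), 17 and 5 in CTRL (31.6% and 31.8%), also in CTRL libraries alone, and 6 lower and 2 higher for the difference (12.1% and 14.9%); NF1KO numbers are not shown to pair. DESeq2 called 8 lower for BYL719 in NF1KO, and the compared libraries alone 7 lower and 1 higher, both without a share of all genes. The 1 gene lower in NF1KO under BYL719 was 0 with the compared libraries alone or with no filter, and with no filter the difference was called for 1. Without both CTRL libraries numbered 1, the counts were 10 lower and 1 higher for BYL719 in NF1KO, 5 higher for BYL719 in CTRL, and 17 higher in NF1KO under each treatment. The cause was not tested. Leaving out 1 library gave 0 to 7 lower and 0 to 1 higher for BYL719 in NF1KO, 3 to 10 lower and 1 to 4 higher for BYL719 in CTRL, 0 to 3 lower for the difference, 4 to 11 higher in NF1KO under DMSO, and 4 to 9 higher and 0 to 2 lower under BYL719. Leaving out an NF1KO DMSO library leaves 1, which was taken to vary like the other groups. The counts with 1 library left out stand without a share of all genes. The single other pathway genes named were not followed through these alternatives.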

Other observations

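Of the 41 genes, 8 contain snoRNA genes within their annotated span, 26 in all: 5 each in NOP56 and GNL3, 4 in NOP58, 3 each in NCL and WDR43, and 2 each in DKC1, PPAN and TSR1. In 9 of the 41 another gene overlaps the span, by any number of bases, and its whole count is at least 20% of the gene's own. These percentages do not measure shared reads. GLT8D1, for example, starts at base 52694486, and GNL3 ends at base 52694497, so they meet only at the edge. These are XPO5 for POLR1C (297% of its counts), MED20 for BYSL (104%), PPAN-P2RY11 for PPAN (91.2%), DNALI1 for GNL2 (85.5%), RMND5B for NHP2 (55.8%), LGALS8 for HEATR1 (54.0%), GLT8D1 for GNL3 (53.8%), SPNS2 for MYBBP1A (24.6%) and NOP14-AS1 for NOP14 (22.6%). Since the strand setting of the counting is not given in the sources used here, reads within such an overlap may not be fully told apart. How many reads lie there was not counted. This could touch the call of BYSL under DMSO. It could also touch calls of other such genes in fits with a block or without libraries numbered 1, among them MYBBP1A, GNL2, GNL3, PPAN, POLR1C and NHP2. For NPM1, RefSeq lists 50 pseudogenes, of which 0 are in the count table, so reads of NPM1 shared with such copies are uncertain.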
